A study of Mus musculus with 21 samples.

Results

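The comparison described is IRI against sham surgery in renal tubular epithelial cells (TECs), and it takes in the 11 TEC libraries of the 21 RNA-Seq libraries of the series. All animals were wild-type mice, which the study's methods describe as male C57BL/6 mice of 8 to 12 weeks. In IRI (ischemia-reperfusion injury) both renal pedicles were clamped for 32 minutes and then released, and in sham surgery no clamp was placed. Both operations were preceded either by RIPC (remote ischemic preconditioning, 3 inflations of a hind limb cuff for 5 minutes each, about 15 minutes ahead of the clamp) or by a control procedure. The cells were taken 24 hours after surgery, so the libraries were 3 of sham control, 3 of sham RIPC, 2 of IRI control and 3 of IRI RIPC. Libraries were chosen by their titles alone: 5 IRI libraries were set against 6 sham libraries, with preconditioning as a covariate. TECs were pulled from collagenase-digested kidneys with magnetic beads against prominin-1, a membrane protein of tubular cells, so the libraries stand for the cells that the beads held and not for the whole nephron. The methods also describe plating of isolated cells, and whether the cells behind these libraries were plated was not stated. How many animals a library holds was not stated either, and p-values therefore measure the spread between these libraries, which may in part be technical.

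The proximal tubule takes back most of the filtered glucose, phosphate, amino acids and small proteins. It draws its energy mainly from the oxidation of fatty acids in mitochondria and peroxisomes, and it makes glucose from lactate and glutamine. It is the segment known to be hurt most by clamping, and its surviving cells are known to lose differentiated functions and to switch on injury genes such as Havcr1 (kidney injury molecule 1) and Krt20 (an intermediate filament keratin).

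The libraries held 21479605 to 32090079 reads after IRI and 25456279 to 51624602 after sham surgery. Levels are given as CPM (read counts brought to a common library size with TMM factors), and 3 reads, the limit that a count of 0 allows, came to between 0.083 and 0.143 CPM. That limit covers counting error only. Mitochondrial genes took 18.8 to 29.1% of reads in sham and 13.1 to 23.9% in IRI libraries. The label of the cells was checked against markers, whose levels in every library are shown in the plot of summed markers. The summed level of 11 proximal tubule markers was 7978 to 17914 CPM in sham libraries and 1010.0 to 6594 CPM in IRI libraries, and that of Krt20 and Havcr1 together was 0 to 99.4 CPM and 950.3 to 1779 CPM. Prom1, the gene of the protein used for the isolation, was at 19.3 to 124 CPM in sham and 8.07 to 118 CPM in IRI libraries, which overlap. In bulk libraries, fewer cells of a type and less RNA per cell cannot be told apart. 3 libraries stood apart. Replicate 2 of sham control, the deepest, had reads for 14326 genes where the other libraries had 20638 to 24331. Replicate 1 of sham control had the most Krt20 and Havcr1 and the least of the proximal tubule markers among sham libraries, and it was the highest sham library for 29 of the 50 genes that rose. Replicate 3 of IRI RIPC had the most proximal tubule marker reads after IRI, and it was the highest IRI library for 110 of the 230 genes that fell.

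**Figure D1:**
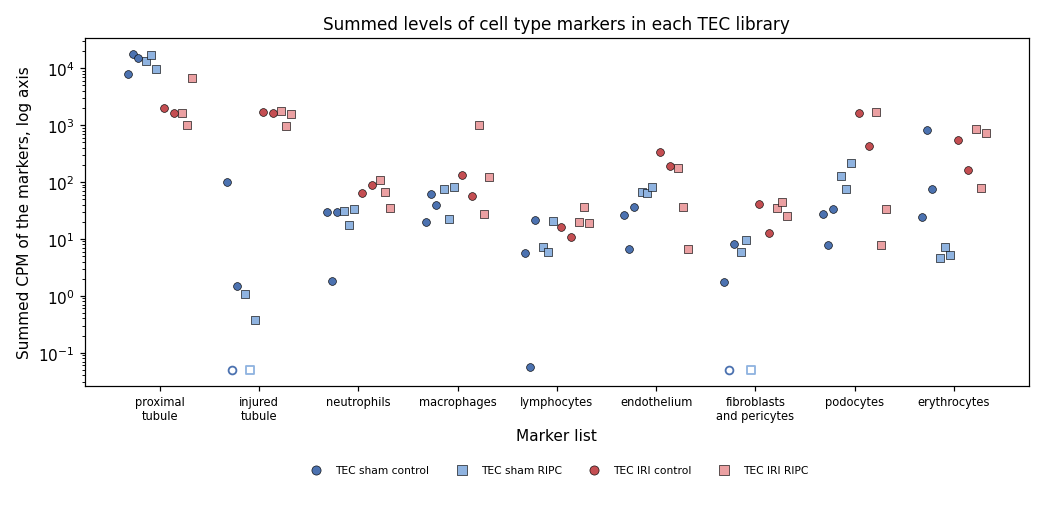
Summed level of each list of cell type markers (CPM, log axis) in each of the 11 TEC libraries, with 1 point per library, circles for control and squares for RIPC, blue for sham and red for IRI. Open symbols at the foot stand for libraries under 0.05 CPM. The 6 sham libraries sit above the 5 IRI libraries for proximal tubule markers and below them for Krt20 and Havcr1, while macrophage, lymphocyte, endothelial and podocyte sums overlap.

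Markers of other cells were also measured in these libraries, and their part in the results below was not tested. Neutrophil markers summed to 1.80 to 34.0 CPM in sham and 35.3 to 110.3 CPM in IRI libraries with no overlap, and 1 of the 6 tested, Retnlg, passed the test. Of these 6, 4 were at an unadjusted p under 0.05, and DESeq2's Wald test and limma-voom each called 3. Mmp9, Camp, Ngp, Ltf and Ly6g, which also mark neutrophils, had too few reads to be tested, with none at all for Camp, and the B cell marker Cd79b had none either. The 7 fibroblast and pericyte markers summed to 0 to 9.61 CPM in sham and 12.5 to 45.0 CPM in IRI libraries, again with no overlap and with no member past the threshold in edgeR (2 at an unadjusted p under 0.05, and 1 called by DESeq2). Macrophage (8 tested), lymphocyte (5) and endothelial (8) sums overlapped between the groups, and no member passed edgeR's test, with 1, 0 and 2 members at an unadjusted p under 0.05 and 1, 0 and 2 called by DESeq2's Wald test. The macrophage sum was 996 CPM in IRI RIPC 1, against 27.2 to 134.8 CPM in the other IRI libraries and 20.0 to 81.4 CPM in sham libraries. For comparison, 3684 of all 25917 genes tested were at an unadjusted p under 0.05. The 5 podocyte markers reached 1608, 428 and 1693 CPM in IRI control 1, IRI control 2 and IRI RIPC 1, against 7.94 and 33.5 CPM in the other IRI libraries and 7.94 to 213 CPM in sham libraries. None of the 5 passed edgeR's test, 3 were at an unadjusted p under 0.05, and DESeq2's Wald test called 2. The 4 tested erythrocyte genes summed to 4.59 to 806 CPM in sham libraries, with the highest value in replicate 2 of sham control, and to 79.0 to 842 CPM in IRI libraries. None of the 4 passed edgeR's test, 2 were at an unadjusted p under 0.05, and DESeq2's Wald test called 2.

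The calls were mostly of genes that fell. Of 25917 autosomal genes tested, 50 were higher and 230 were lower after IRI at an adjusted p under 0.05, which is 0.193% and 0.887% of all genes. Of these, 44 and 222 were protein-coding. The median log2 fold change was 3.67 for the genes that rose, -2.54 for those that fell and 0.26 for all genes tested. The median of the mean sham levels was 17.3 CPM for the genes that rose and 284 CPM for those that fell. For all genes tested it was 2.88 CPM, so shares of all genes compare genes of unlike level. Every IRI library lay above every sham library for 36 of the 50 genes, and below it for 216 of the 230, where the same was true of 1.43% and 3.16% of all genes tested. In every alternative fit in which they had a value, the 280 genes kept their direction. They were chosen in these same libraries, mostly with groups that did not overlap, so their direction could hardly change. The number called changed with single libraries: 17 higher and 76 lower were called without replicate 2 of sham RIPC, and 76 and 463 without replicate 3 of IRI RIPC. Without the 3 libraries that stood apart, an alternative chosen after seeing the data, 88 and 408 were called. 87 of the 280 calls, 13 higher and 74 lower, were kept in each of the 11 fits that left out 1 library.

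Among the carriers of the proximal tubule, the sulfate carrier had the smallest adjusted p. Slc13a1 (chr6:24088283-24168092 on GRCm38, minus strand), which encodes the apical sodium-sulfate cotransporter, had a lowest, median and highest sham level of 488, 1075 and 1436 CPM. In the order IRI control 1 and 2 and then IRI RIPC 1, 2 and 3, used throughout, it was at 26.2, 29.3, 39.9, 47.2 and 152 CPM after IRI. No IRI library reached the lowest sham library, and the log2 fold change was -4.21 ± 0.55 (SE; adjusted p = 0.00326). Slc5a12 (chr2:110597298-110647779, plus strand), a sodium-coupled lactate transporter of the apical membrane, stood at 133, 291 and 482 CPM in sham libraries. After IRI it was at 0.081, 0.238, 24.2, 8.07 and 82.8 CPM. These groups did not overlap either, yet Slc5a12 missed the threshold (-5.38 ± 1.33, adjusted p = 0.0742), and it passed it without the 3 libraries that stood apart (adjusted p = 0.025). After IRI, both control libraries had less Slc5a12 than each of the 3 RIPC libraries. The interaction of RIPC and surgery for Slc5a12 had an unadjusted p of 5.52e-05 in edgeR's test across all genes, which did not pass adjustment (adjusted p = 0.304).

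Of 22 sodium-coupled, amino acid and glucose carriers of the proximal tubule, 4 fell and none rose, 12 had no overlap between the groups, and the median log2 fold change was -2.50 (DESeq2's Wald test called 13 and limma-voom 14). Slc5a10, a mannose and fructose carrier, fell from 285 ± 252 CPM in sham to 13.4 ± 6.42 CPM in IRI libraries (SD, n = 6 and 5). Slc7a9, the light subunit of the cystine carrier, fell by 2.14 ± 0.41 (adjusted p = 0.0215), and Slc23a1, a vitamin C carrier, by 3.06 ± 0.63 (adjusted p = 0.0331), where these and all later amounts with an SE are on the log2 scale. The phosphate carrier Slc34a1 was at 4366 ± 1213 CPM in sham and 1140.0 ± 1159 CPM in IRI libraries and overlapped, with IRI RIPC 3 at 3191 CPM (adjusted p = 0.0595). The glucose carrier Slc5a2 had a log2 change of -1.92 ± 0.47 and also missed the threshold (adjusted p = 0.0716). Both passed by DESeq2's Wald test and by limma-voom. The call of Slc7a9 was lost in 5 and that of Slc23a1 in 6 of the 11 fits without 1 library, with adjusted p up to 0.0737 and 0.0844, both without replicate 2 of sham RIPC.

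Carriers of organic anions and cations, which clear urate, drugs and uremic toxins, fell in 3 of 21 cases, with a median log2 change of -1.51. DESeq2's Wald test called 6 of the 21 and limma-voom 7, in either direction. Slc22a12, the urate exchanger, was at 439.7, 536 and 688 CPM as the lowest, median and highest sham value. Its IRI levels were 145, 66.5, 81.9, 150.3 and 124 CPM, and no IRI library came near the sham range (-2.28 ± 0.33, adjusted p = 0.00564). Slc22a6, the organic anion transporter of the basolateral side, fell by 2.66 ± 0.57 and Slc47a1, a proton-coupled exporter of cations, by 2.11 ± 0.48 on the log2 scale, the latter with an IRI library inside the sham range. Slc22a8, another organic anion transporter, had a log2 change of -1.23 ± 0.51 and did not pass. Calls were lost in 7 of 11 fits without 1 library for Slc22a6 (adjusted p up to 0.0917, without IRI RIPC replicate 1) and in 9 for Slc47a1 (up to 0.126, without sham RIPC replicate 2).

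Uptake of filtered protein was represented by 7 genes, of which 3 fell in edgeR, while DESeq2's Wald test and limma-voom each called 5, in either direction. Lrp2, which encodes megalin, the main endocytic receptor, was at 230.2, 623 and 1389 CPM in sham and 154, 62.8, 73.9, 106 and 184 CPM in IRI libraries (-2.54 ± 0.47, adjusted p = 0.0176). Lrpap1, the chaperone of that receptor, fell by 1.56 ± 0.31, and Folr1, the folate receptor that megalin partners with, by 2.30 ± 0.43. The adaptor Dab2, at 678 ± 130.2 CPM in sham and 695 ± 281 CPM in IRI libraries, and the immunoglobulin receptor Fcgrt, with a log2 change of -0.59 ± 0.40, did not pass. The call of Lrp2 was lost without replicate 2 of sham RIPC (adjusted p = 0.0574) and that of Folr1 without replicate 1 or 2 of sham RIPC (at most 0.0664). For Lrpap1 it was lost in 7 of the 11 fits, with an adjusted p of 0.0962 without replicate 2 of sham RIPC.

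**Figure D2:**
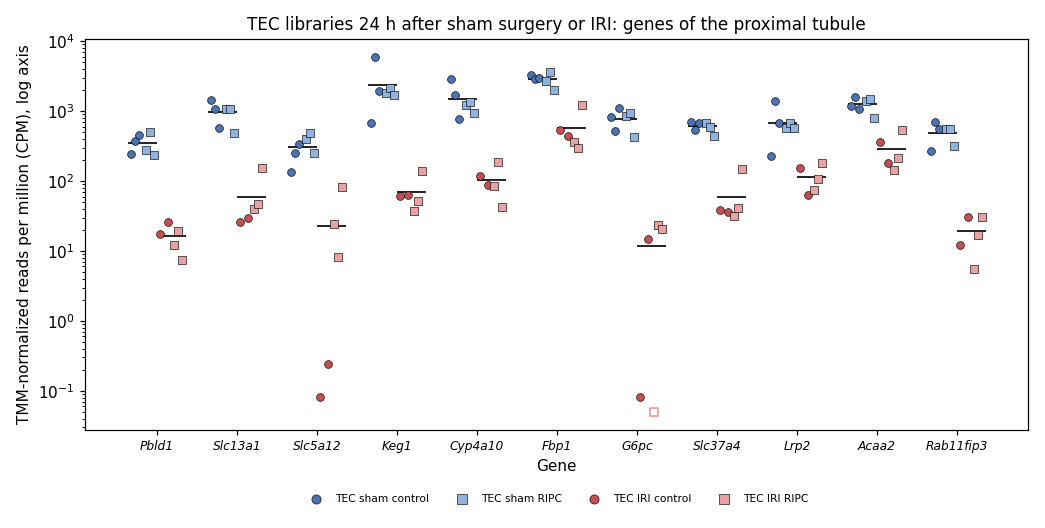
Levels (CPM, log axis) of 11 genes in each TEC library, with 1 point per library, circles for control and squares for RIPC, blue for sham and red for IRI, and black lines for the mean of the 6 sham and of the 5 IRI libraries. Open symbols at the foot are libraries under 0.05 CPM. Each gene is lower in all IRI than in all sham libraries, with Slc13a1 at 488 to 1436 against 26.2 to 152 CPM.

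Glucose and fructose metabolism was the list with the highest share of calls, 8 of 9, and its median log2 change was -2.76. Fbp1, which removes a phosphate from fructose bisphosphate on the way to glucose, was at 2006, 2923 and 3676 CPM in sham libraries. It was at 538, 444, 356, 295 and 1215 CPM after IRI, with IRI RIPC 3 above the other IRI libraries and below all sham libraries (-2.37 ± 0.37, adjusted p = 0.0103). Pck1, the enzyme that commits carbon to gluconeogenesis, fell by 2.73 ± 0.45, and Khk, the fructose kinase, by 2.46 ± 0.38 on the log2 scale. The call of Pck1 was lost with limma-voom (adjusted p = 0.239). Slc37a4, which carries glucose 6-phosphate into the endoplasmic reticulum, fell from 605 ± 99.2 CPM in sham to 58.7 ± 49.1 CPM in IRI libraries (-3.46 ± 0.47, adjusted p = 0.00406). The last enzyme of the pathway, G6pc, a member of the list that was picked for description after its values were seen, was at 419.7, 832 and 1092 CPM in sham and 0.081, 15.0, 0, 23.9 and 20.4 CPM in IRI libraries. 1 of the 5 IRI libraries held no G6pc read, and its call (adjusted p = 0.04) was lost in 6 of 11 fits without 1 library, with an adjusted p up to 0.118 without sham control replicate 2. Slc2a5, the fructose carrier, did not overlap between the groups and did not pass (-3.39 ± 1.19, adjusted p = 0.235).

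Amino acid and inositol breakdown followed with 11 of 25 members lower, none higher and all 25 fold changes under 0. DESeq2's Wald test called 21 of the 25 and limma-voom 17. The gene with the smallest adjusted p of all was Pbld1 (chr10:63060162-63077962, plus strand), a phenazine biosynthesis-like protein of unclear function that is strongly expressed in proximal tubule. Its lowest, median and highest sham levels were 233, 326 and 505 CPM. After IRI it was at 17.2, 26, 12.2, 19.2 and 7.41 CPM, so the highest IRI library was under the lowest sham library (-4.41 ± 0.44, adjusted p = 0.00161). Its close copy, Pbld2, had a log2 change of -5.34 ± 1.35 and did not pass (adjusted p = 0.0788), and short reads may be split between the pair. Ass1, which joins citrulline and aspartate in arginine synthesis, fell by 2.29 ± 0.48, with 1 IRI library inside the sham range. Miox, the inositol oxygenase, fell by 1.68 ± 0.36, Gcdh, of lysine breakdown, by 2.68 ± 0.43, and Fah, of tyrosine breakdown, by 2.12 ± 0.36. Gatm, the first enzyme of creatine synthesis, was at 3127 ± 1679.5 CPM in sham and 189 ± 357 CPM in IRI libraries with overlap (adjusted p = 0.0969). Calls of Ass1 and Miox were lost in 6 and 7 of 11 fits without 1 library, with adjusted p up to 0.116 and 0.13, both without replicate 2 of sham RIPC. That of Ass1 was also lost with limma-voom (0.0748) and that of Fah with a length offset in edgeR (0.122).

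Other enzymes of small molecules were among the genes that fell with the smallest adjusted p. Aldh8a1, an aldehyde dehydrogenase of tryptophan breakdown, was at 464, 602 and 1037 CPM in sham and 112, 66.6, 54.4, 91.1 and 75.8 CPM in IRI libraries (-3.04 ± 0.34, adjusted p = 0.00198). Aspa, which splits acetylaspartate, fell by 3.99 ± 0.52 and Fahd1, a mitochondrial acylpyruvate hydrolase whose gene overlaps Hagh on the other strand, by 3.16 ± 0.44.

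Fatty acid oxidation changed in part. 6 of 18 members fell, none rose, and the median log2 change was -1.18. The omega-hydroxylases, which oxidize fatty acids from the far end, were among those that fell. Cyp4a10 was at 776, 1301 and 2895 CPM in sham and 119.8, 87.0, 85.0, 187 and 43.2 CPM in IRI libraries (-3.76 ± 0.46, adjusted p = 0.00272). Cyp4a14 fell by 4.40 ± 0.56, and Cyp4a31, which is on no list, by 2.31 ± 0.32. These genes are close copies of each other, and reads may be split between them. The mitochondrial Acaa2 and Acadm, the thiolase and the medium-chain dehydrogenase, fell by 2.12 ± 0.38 and by 2.23 ± 0.47. Scp2, a peroxisomal thiolase and sterol carrier, fell by 1.97 ± 0.28. Cyp4b1, at -1.38 ± 0.32, missed the threshold (adjusted p = 0.0572), and Ehhadh, the peroxisomal bifunctional enzyme, stood at 979 ± 813 CPM in sham and 1188 ± 332 CPM in IRI libraries. Cpt1a, Acadl and Hadha, of the carnitine shuttle and the mitochondrial spiral, had log2 changes of -0.31 ± 0.34, -0.49 ± 0.29 and -0.64 ± 0.48 and did not pass. The call of Acaa2 was lost without replicate 1 or 2 of sham RIPC (adjusted p at most 0.0607), and that of Acadm in 6 of 11 fits without 1 library (up to 0.109, without replicate 2 of sham RIPC).

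Detoxification enzymes fell in 5 of 15 cases, with all 15 fold changes below 0 and a median of -1.99. DESeq2's Wald test called 10 of the 15 and limma-voom 9. Keg1 (chr19:12695786-12719902, plus strand), a kidney-expressed glycine acyltransferase-like gene, was at 681, 1856 and 6003 CPM in sham libraries and 60.6, 62.6, 36.7, 51.2 and 138 CPM in IRI libraries. The lowest sham library, replicate 1 of sham control, still had several times the highest IRI level (-5.04 ± 0.58, adjusted p = 0.00226), but the call was lost with limma-voom and quality weights (adjusted p = 0.101). Ugt2b38, a glucuronosyltransferase, fell by 2.35 ± 0.48, Cyp2e1, a cytochrome P450 of small solvents, by 2.54 ± 0.54, and Fmo1, a flavin monooxygenase, by 3.13 ± 0.70. Gsta2 and Sult1d1, at -1.08 ± 0.33 and -0.84 ± 0.33, did not pass. Calls were lost in 7, 5 and 6 of 11 fits without 1 library for Ugt2b38, Cyp2e1 and Fmo1, with adjusted p up to 0.0875 and 0.108 without replicate 2 of sham RIPC and 0.127 without sham control replicate 2. That of Cyp2e1 was also lost with limma-voom (0.0682).

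Of 16 nuclear genes of the respiratory chain, 3 fell and none rose, all 16 fold changes were below 0, and the median was -1.15. DESeq2's Wald test called 8 of the 16 and limma-voom 9. Uqcrc1, of complex III, fell by 1.34 ± 0.29, Sdhb, of complex II, by 1.22 ± 0.27, and Ndufs1, of complex I, by 2.32 ± 0.46. Atp5b and Atp5a1, the catalytic and regulatory subunits of ATP synthase, had log2 changes of -1.14 ± 0.27 and -1.16 ± 0.32 (adjusted p = 0.0629 and 0.114). Cox4i1, of complex IV, was at 1196 ± 210.2 CPM in sham and 975 ± 167 CPM in IRI libraries (adjusted p = 0.718). Calls were lost in 8, 9 and 5 of 11 fits without 1 library for Uqcrc1, Sdhb and Ndufs1, with adjusted p up to 0.131 and 0.146 without replicate 2 of sham RIPC and 0.0827 without sham control replicate 2.

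Genes of other roles were also among the 15 with the smallest adjusted p that fell. Rab11fip3, an effector of recycling endosomes, was at 266, 552 and 694 CPM in sham and 12.0, 30.8, 5.61, 16.7 and 30.5 CPM in IRI libraries (-4.67 ± 0.52, adjusted p = 0.00198). Prss8, the membrane protease prostasin that acts on the epithelial sodium channel, fell by 3.29 ± 0.40 and Itpr2, a calcium release channel of the endoplasmic reticulum, by 4.38 ± 0.56. The gene of Prss8 overlaps Kat8 on the other strand, and whether the libraries keep the strand was not stated, so reads of such pairs cannot be told apart. AC132455.2, a long noncoding RNA, was at 13.9 to 35.7 CPM in sham libraries and at or under 3 reads in each IRI library, and was at least 171-fold lower after IRI.

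Transcription factors of the nephron were mixed. Nr1h4, the bile acid receptor, fell from 275 ± 100.3 CPM in sham to 54.6 ± 32.4 CPM in IRI libraries (-2.26 ± 0.39, adjusted p = 0.013). Sox9, a factor known from repairing tubular cells, rose: it was at 0, 1.11 and 7.90 CPM in sham and 109, 137, 121, 178 and 394 CPM in IRI libraries, with no overlap (6.21 ± 1.24, adjusted p = 0.0288). The proximal regulator Hnf4a had a log2 change of -1.77 ± 0.46 and did not pass (adjusted p = 0.0878), and Pax8 stood at 0.95 ± 0.47. The call of Sox9 was lost without replicate 2 of sham control and without replicate 1 or 2 of sham RIPC (adjusted p at most 0.0881). Of 19 genes of the loop of Henle, the distal tubule and the collecting duct, none passed edgeR's test. At an unadjusted p under 0.05 were 5 of them, against 3684 of all 25917 genes, and DESeq2 called 3. Umod and Slc12a1 had log2 changes of -0.65 ± 0.58 and -2.40 ± 0.91.

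**Figure D3:**
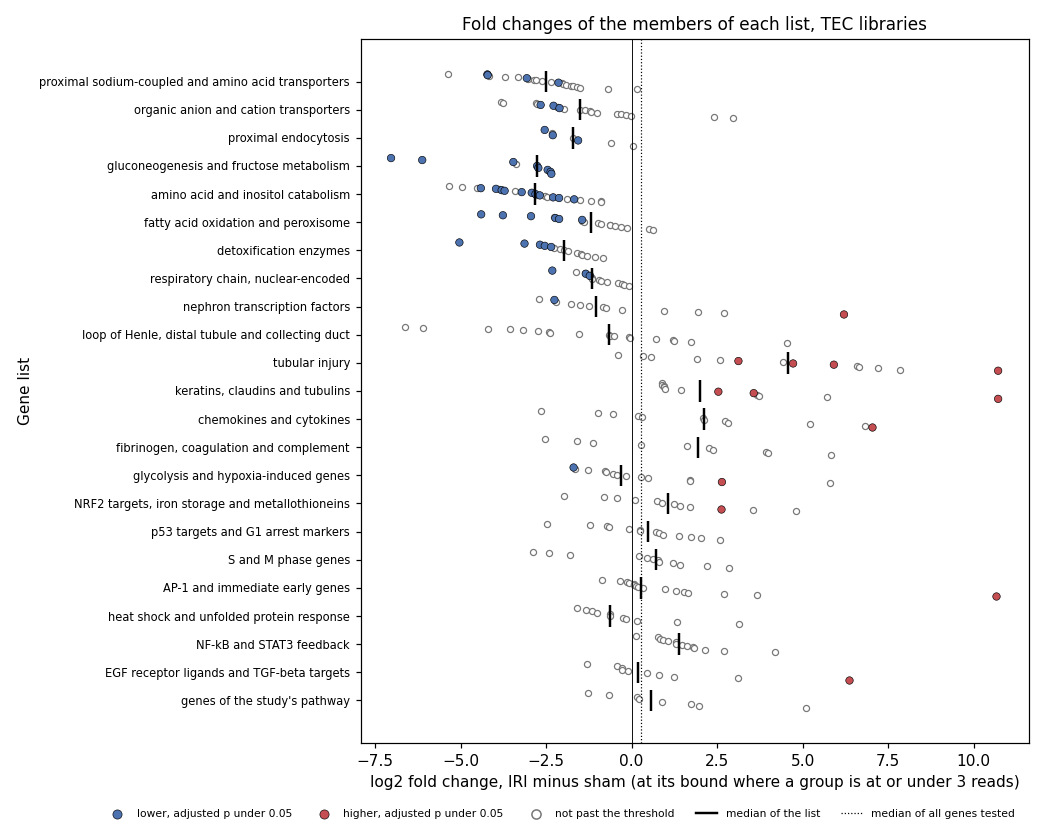
Log2 fold change of IRI minus sham (x axis) of each tested member of 23 gene lists (y axis), drawn at its bound where a group was at or under 3 reads per library, filled blue or red where the adjusted p was under 0.05 and open where not, with each list's median as a bar and the median of all genes, 0.26, as a dotted line. The lists of proximal function lie to the left, with medians between -2.81 and -1.15, and tubular injury lies furthest to the right with a median of 4.58.

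Genes of injured epithelium were among those that rose. Krt20 (chr11:99428403-99438150, minus strand) was at 0, 0.186 and 16.7 CPM as the lowest, median and highest sham value, the highest being replicate 1 of sham control. After IRI it was at 993, 991, 1379, 414 and 1491 CPM. The groups were well apart, the fitted log2 change was 10.72 ± 1.89 (adjusted p = 0.0147), and the call was lost without replicate 3 of sham RIPC (adjusted p = 0.051). With 3 sham libraries at 0 reads, the size of the Krt20 change is uncertain. It was 8.42 with no preconditioning term, and the group means differed 343-fold. DESeq2's Wald test gave no adjusted p for Krt20. Havcr1 (chr11:46735080-46779578, plus strand) was at 0, 0.0391 and 82.8 CPM in sham libraries and at 727, 612, 399.9, 536 and 80.2 CPM in IRI libraries. The highest sham library, replicate 1 of sham control, lay just above the lowest IRI library, IRI RIPC 3, and the change did not pass the test (7.86 ± 2.21, adjusted p = 0.116). Without replicate 1 of sham control it did (log2 change 11.17, adjusted p = 0.00334), and with all 11 libraries it passed by DESeq2's Wald test (adjusted p = 0.000129), apeglm (s-value 0.0082) and limma-voom (adjusted p = 0.00456). The size of the Havcr1 change is uncertain too. It was 5.07 with no preconditioning term, and the group means differed 33.7-fold.

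Of 14 genes of tubular injury, 4 rose in edgeR (Krt20, Lgals3, Anxa2 and Tnfrsf12a) and none fell. DESeq2's Wald test called 8 of the 14 and limma-voom 10, in either direction. Lgals3, a galectin, was at 0.111, 6.53 and 93.6 CPM in sham and 1272, 1245, 1029.8, 792 and 472 CPM in IRI libraries (5.91 ± 1.09, adjusted p = 0.0177). Anxa2, a membrane-binding annexin, was at 0, 10.6 and 24.7 CPM in sham and 441, 266, 239, 165 and 91.8 CPM in IRI libraries. S100a10, the partner protein of Anxa2, is on no list and rose from 182 ± 243 CPM in sham to 1138 ± 332 CPM in IRI libraries (3.00 ± 0.53, adjusted p = 0.0149). Tnfrsf12a, the receptor of the cytokine TWEAK, rose by 3.12 ± 0.67 with overlap of the groups. Spp1, osteopontin, was at 3182 ± 3318 CPM in sham and 10670.0 ± 5424 CPM in IRI libraries (adjusted p = 0.102), and Cdkn1a, the cell cycle inhibitor p21, had a log2 change of 2.59 ± 0.69 (adjusted p = 0.0986). Lcn2, known as a urinary marker of tubular injury, ranged from 0 to 52.8 CPM in sham and was at 87.3, 231, 21.2, 102 and 0.189 CPM in IRI libraries, and did not pass (adjusted p = 0.217). Calls were lost without replicate 1 or 2 of sham RIPC for S100a10 (adjusted p at most 0.0623), without each of the 3 sham RIPC libraries for Lgals3 (at most 0.0664), and in 7 and 6 of 11 fits for Anxa2 and Tnfrsf12a, up to 0.132 and 0.132 without replicate 2 of sham RIPC.

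Genes of the cytoskeleton and the cell surface rose beside them. Emp1, an epithelial membrane protein, had 4 reads in 1 sham library and none in the other 5, and was at 25.0, 34.5, 68.8, 14.7 and 79.7 CPM after IRI (adjusted p = 0.00326). Its fitted log2 change, 10.70, depends on the prior count. Tmsb10, which binds actin monomers, rose from 9.65 ± 7.16 CPM in sham to 113 ± 55.4 CPM in IRI libraries (3.57 ± 0.58, adjusted p = 0.012), and Clic1, a chloride channel protein, by 1.84 ± 0.31. S100a11, a calcium-binding protein of the annexins, rose by 2.54 ± 0.49 with the groups overlapping, and its call was lost in 4 of 11 fits without 1 library, up to 0.0849 without sham RIPC replicate 2. Lrrfip2, which binds the cytoskeletal regulator flightless, had the smallest adjusted p among the genes that rose: it was at 16.8, 21.8 and 44.5 CPM in sham and 357, 295, 139, 126 and 261 CPM in IRI libraries (3.19 ± 0.39, adjusted p = 0.00272). Chrnb1, a subunit of the muscle acetylcholine receptor, had no read in any sham library and was at 27, 16.7, 55.6, 65.7 and 0.944 CPM after IRI, at least 281-fold higher with each sham library set at 3 reads. Of 12 tested keratins, claudins, tubulins and related genes, 3 rose (Krt20, S100a11 and Tmsb10), and Krt8 and Tubb6, at log2 changes of 0.88 ± 0.37 and 0.89 ± 0.62, did not pass.

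**Figure D4:**
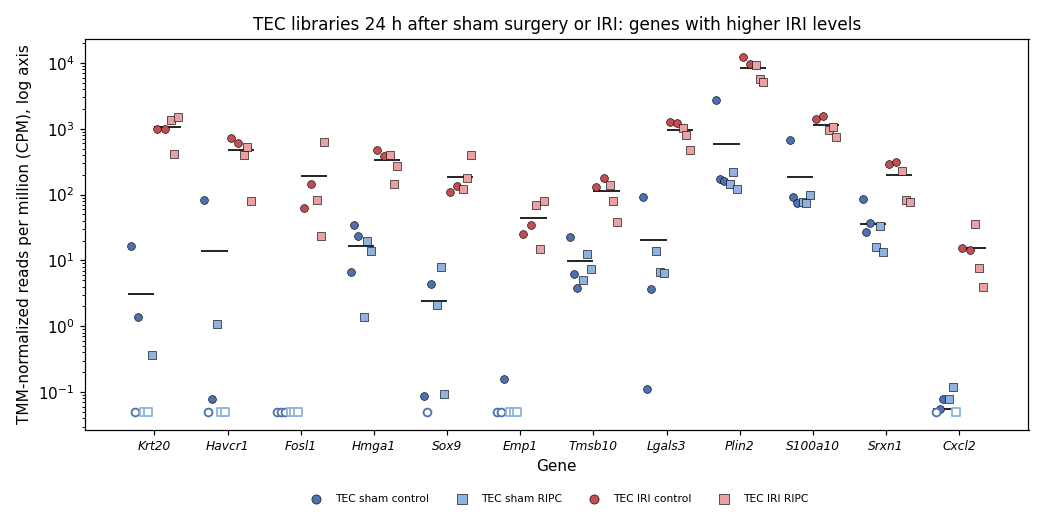
Levels (CPM, log axis) of 12 genes in each TEC library, with 1 point per library, circles for control and squares for RIPC, blue for sham and red for IRI, and black lines for group means. Open symbols at the foot are libraries under 0.05 CPM. Fosl1 has no read in any sham library and 23.7 to 635 CPM after IRI, and replicate 1 of sham control is the highest sham point for Krt20, Havcr1, Lgals3, Plin2, S100a10 and Srxn1.

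Fosl1 (chr19:5447547-5455946, plus strand), the Fos family member Fra-1 of the AP-1 factor, had no read in any of the 6 sham libraries. It was at 63.2, 147, 82.7, 23.7 and 635 CPM after IRI, highest in IRI RIPC 3, and at least 1614-fold higher with each sham library set at 3 reads (adjusted p = 0.00326). Without IRI RIPC 3 it was at least 671-fold higher. Its gene overlaps Ccdc85b on the other strand. Of the 16 AP-1 and immediate early genes it was the 1 that rose in edgeR, and none fell. DESeq2's Wald test called 5 of the 16 and limma-voom 3, in either direction. Fos was at 793 ± 244 CPM in sham and 719.6 ± 588 CPM in IRI libraries, and Dusp1, a phosphatase of MAP kinases, was at 519 ± 208 CPM in sham and 598 ± 415 CPM in IRI libraries. Hmga1, a chromatin protein of growing cells, was at 1.38, 16.7 and 34.3 CPM in sham and 481, 387, 403, 146 and 269 CPM in IRI libraries (4.46 ± 0.63, adjusted p = 0.00554). Btg1, an antiproliferative cofactor, rose by 2.71 ± 0.44, and its call was lost with a length offset in edgeR (adjusted p = 0.0597).

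Stress and lipid genes were also called. Plin2, the coat protein of lipid droplets, was at 123, 165 and 2764 CPM in sham libraries, where all but replicate 1 of sham control were at or under 217 CPM. It was at 12484, 9535, 9409.9, 5803 and 5218 CPM after IRI (4.56 ± 0.74, adjusted p = 0.012), and the call was lost with limma-voom and quality weights (adjusted p = 0.38). Cstb, an inhibitor of lysosomal proteases, rose by 2.09 ± 0.32. Chac1, which degrades glutathione, had no read in sham libraries and was at 39.3, 13.9, 40.3, 8.53 and 9.68 CPM after IRI, at least 189.5-fold higher with each sham library set at 3 reads. Of 12 genes of the NRF2 response, iron storage and metallothioneins, 1 rose in edgeR: Srxn1, which restores oxidized peroxiredoxins, by 2.61 ± 0.47. Of these 12, 7 were at an unadjusted p under 0.05, and DESeq2's Wald test called 5 and limma-voom 7, in either direction. Fth1 and Ftl1, the ferritin chains, had log2 changes of 0.73 ± 0.30 and -0.44 ± 0.21 and did not pass. The call of Srxn1 was lost without replicate 1 of sham RIPC (adjusted p = 0.0547). Ugt1a8 had no read in sham libraries and was at 35.1, 56.6, 19.0, 22.6 and 27.4 CPM after IRI, at least 272-fold higher by the same bound. It shares its last exons with Ugt1a1, which had no read in any IRI library, none in sham control libraries, and 30.2, 47.4 and 63.6 CPM in sham RIPC libraries (adjusted p = 0.0232). The call of Ugt1a1 was lost in 4 of 11 fits without 1 library, up to 0.108 without sham RIPC replicate 2, and by DESeq2's Wald test (adjusted p = 0.134). Which of the genes at this locus gave the reads is uncertain.

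Cxcl2, a neutrophil-attracting chemokine, was at or under 3 reads in each sham library and at 15.4, 14.4, 36.1, 7.57 and 3.97 CPM after IRI, at least 131-fold higher. Its call (adjusted p = 0.0143) was lost without replicate 1 of IRI RIPC (adjusted p = 0.0677). It was the 1 chemokine or cytokine of 12 tested that rose in edgeR, and none fell. DESeq2's Wald test called 4 of the 12 and limma-voom 2, in either direction. Among IRI libraries, Cxcl2 and the neutrophil marker sum were both highest in IRI RIPC 1 (36.1 and 110.3 CPM). Both were lowest in IRI RIPC 3 (3.97 and 35.3 CPM), and the part of neutrophils in this result was not tested. Cxcl16 and Cxcl1 had log2 changes of -0.99 ± 0.71 and 2.72 ± 1.13. Adm, adrenomedullin, rose by 2.64 ± 0.56, while the glycolytic enzyme Eno1 fell by 1.70 ± 0.29. They were the only 2 of 14 glycolysis and hypoxia-induced genes past the threshold in edgeR, and Aldoa and Ldha, at -0.76 ± 0.24 and -0.77 ± 0.30, did not pass. DESeq2's Wald test called 3 of the 14 and limma-voom 5, in either direction. Ccn2, connective tissue growth factor, was at 0.0553, 4.00 and 16.4 CPM in sham and 582, 417, 1103, 3.30 and 68.4 CPM in IRI libraries (6.35 ± 1.37, adjusted p = 0.0391). The 2 IRI libraries with the least Ccn2 were also the 2 with the fewest podocyte and endothelial marker reads, and the part of such cells in this result was not tested. Ccn2 was the 1 of 10 tested genes of EGF receptor ligands and TGF-beta targets that passed, and Ccn1 and Hbegf, at -0.44 ± 0.37 and 0.80 ± 0.67, did not. The calls of Adm and Ccn2 were lost in 6 and 7 of 11 fits without 1 library, up to 0.11 without sham RIPC replicate 2 and 0.198 without IRI RIPC replicate 1. That of Ccn2 was also lost with limma-voom (0.217) and with a length offset in edgeR (0.0541).

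Several responses often looked for after ischemia had no member past the threshold in edgeR. These were the 14 p53 targets and arrest markers (Btg2 and Cdkn1a at log2 changes of 0.80 ± 0.57 and 2.59 ± 0.69), the 12 tested S and M phase genes (Ccnd1 and Pcna at -1.80 ± 0.81 and 0.81 ± 0.53), and the 11 heat shock and unfolded protein genes (Hspa8 and Hsp90aa1 at -1.0 ± 0.24 and -0.17 ± 0.29). The same held for the 14 genes of NF-kB and STAT3 feedback, although all 14 fold changes were above 0 with a median of 1.39, and Stat3 and Nfkbia stood at 1.79 ± 0.47 and 0.83 ± 0.48. The 10 tested genes of fibrinogen, coagulation and complement had wide spreads, as Fgg, a fibrinogen chain, was at 8.76, 35.1 and 2282 CPM in sham and 1167, 560.2, 610.2, 918 and 15.1 CPM in IRI libraries, with the highest sham value in replicate 1 of sham control, and Fga had a log2 change of 1.62 ± 1.23. The 8 genes of the pathway that the study follows, among them Hmgb1 and Igfbp7 at 0.23 ± 0.26 and -0.67 ± 0.44, did not pass either. For the p53, S and M phase, heat shock, NF-kB, fibrinogen and study pathway lists, 1, 2, 5, 2, 5 and 1 members were at an unadjusted p under 0.05. DESeq2's Wald test called 1, 0, 4, 2, 3 and 1 of them, and limma-voom 1, 0, 3, 1, 1 and 0. Of all 25917 genes tested, 3684 were at an unadjusted p under 0.05. Over all genes, DESeq2's Wald test called 770 higher and 1112 lower of 19157 with an adjusted p, and limma-voom 204 and 657 of 25917. A change that missed the threshold is not shown to be absent.

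Promoters of the called genes were read from RefSeq (GRCm38.p6, 250 bases before each start), which listed starts for 37 of the genes that rose and 185 of those that fell. The letters of AP-1, the factor that Fosl1 belongs to, were searched as TGANTCA on both strands, and stood in 20.8% of the 48 promoters of genes that rose, 5.16% of the 252 of genes that fell and 6.77% of all 31396. Letters of the proximal regulator HNF4 were searched as CAAAGTCCA on both strands. They stood in 5 promoters of genes that fell (1.98%), in 123 of all (0.392%), and in none of the 48 of genes that rose. The same letters of Agxt2 were counted at 2 starts. These counts are small, and no difference between them was tested. The antioxidant response element, searched as TGACNNNGC and able to overlap the AP-1 letters, stood in 12.5%, 11.9% and 10.3%. These are matches of letters and not sites, genes with several starts were counted at each, and promoters of Fosl1, Slc13a1 and Slc5a12 were not analysed here. 3 promoters are given below, as examples of both directions picked after the matches were seen, with the letters of AP-1 or HNF4 in capitals. Emp1 and Clic1, described above, rose, and Agxt2, a mitochondrial aminotransferase, fell, with its call lost in 6 of 11 fits without 1 library (adjusted p up to 0.081, without sham RIPC replicate 1).
Emp1, chr6:135362681-135362930, plus strand: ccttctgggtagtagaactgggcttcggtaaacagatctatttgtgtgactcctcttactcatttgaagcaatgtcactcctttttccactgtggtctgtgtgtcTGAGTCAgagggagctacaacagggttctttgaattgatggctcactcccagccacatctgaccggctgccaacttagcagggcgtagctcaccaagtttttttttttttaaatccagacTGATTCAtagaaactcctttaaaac
Clic1, chr17:35049993-35050242, plus strand: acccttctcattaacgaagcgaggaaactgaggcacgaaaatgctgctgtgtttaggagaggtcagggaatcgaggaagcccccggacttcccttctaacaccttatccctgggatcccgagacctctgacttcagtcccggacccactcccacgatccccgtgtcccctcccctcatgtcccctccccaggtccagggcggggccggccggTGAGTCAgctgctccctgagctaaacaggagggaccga
Agxt2, chr15:10358283-10358532, plus strand: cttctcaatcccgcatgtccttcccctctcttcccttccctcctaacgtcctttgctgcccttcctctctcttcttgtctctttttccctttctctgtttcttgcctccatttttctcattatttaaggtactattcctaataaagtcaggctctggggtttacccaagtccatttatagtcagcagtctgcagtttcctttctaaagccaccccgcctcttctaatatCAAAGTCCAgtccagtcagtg
In Emp1, the AP-1 letters began 145 and 25 bases before this start, and in Clic1 38 bases before it. The HNF4 letters of Agxt2 began 21 bases before the start.

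Whether the response to clamping differed between animals with and without RIPC was asked of the same libraries. Within the 5 control libraries alone and within the 6 RIPC libraries alone, edgeR called no gene at an adjusted p under 0.05, with 1575 and 1918 genes at an unadjusted p under 0.05. Each of the 280 called genes that could be fitted in an arm, 279 without RIPC and 274 with it, had the same sign there as in the pooled fit that chose it. That fit held both arms, so this shared sign was largely fixed in advance and cannot show that the arms respond alike. Pbld1 had log2 changes of -4.05 without and -4.63 with RIPC, Slc13a1 of -5.22 and -3.40, Plin2 of 3.44 and 5.48, and Hmga1 of 4.30 and 4.64. The interaction of RIPC and surgery was called for no gene by edgeR, with 1869 genes at an unadjusted p under 0.05, and for 660 by DESeq2's Wald test.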

How the data were processed

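RNA-Seq was deposited for 21 libraries, of which the 11 TEC libraries were used, grouped by their labels. As the study's methods and the submitters' processing notes state, reads were trimmed with Trim Galore 0.6.4 and quantified against mm10 with Salmon 1.0.0. The values that the authors deposited are estimated counts per transcript, in 2 files per library. What distinguishes the 2 files was not stated. The cDNA was made from poly(A) RNA and amplified by PCR, so reads are not independent molecules. The estimated counts of both files were added, summed by gene with Gencode M21 (GRCm38) and rounded, and 884 of 140748 transcripts, with 0.163 to 0.255% of reads, matched no gene. Genes of chromosomes X, Y and M were left out. Depth was 21479605 to 51624602 reads per library.

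IRI was compared with sham surgery with edgeR 4.0.16 (R 4.3.3): TMM scaling, genes with low counts removed with filterByExpr, preconditioning and surgery as terms, the quasi-likelihood F test (two-sided), and Benjamini-Hochberg adjustment over all 25917 genes, with 0.05 as the threshold. Adjusted p-values are from this test unless another tool is named. For each log2 fold change, the standard error (SE) was taken as the absolute value over the square root of F. The fitting was first tested on simulated data, with changed genes drawn from all levels of expression. It called 2 of 100 genes changed 4-fold and 20 of 100 changed 16-fold, all in the right direction, and 1 unchanged gene. Most changes of these sizes were therefore missed in the simulation. A fold against a group at or under 3 reads per library is a bound with each such library set at 3 reads. Alternatives were other scalings, filters and designs, each file alone, each library left out, DESeq2 1.42.0, apeglm 1.24.0 and limma-voom (limma 3.58.1).

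The members and gene lists were chosen with earlier results of these data known. The text names Slc5a12, Slc13a1, Pbld1, Krt20 and Havcr1, in each direction the first 15 genes by adjusted p whose groups did not overlap, leaving out predicted names, and per list up to 4 called and 2 other members with the highest level. Acadl, Hadha, Cpt1a, Cox4i1, Pbld2, Lcn2, G6pc, Agxt2, Retnlg, Ugt1a1 and Prom1 fall outside that rule and were chosen after their values were seen. Some items that the rule names are not reported here.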

Additional observations from a re-analysis of the deposited data

Results flagged for a closer look

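For 72 sets of 5 or 6 libraries of 1 surgery, the lowest and the highest library were compared with the rest by Dixon's criterion. In 10 sets, a library was far from the others. Chance gives about 1 in 20 for independent sets of normally spread values. These sets share libraries and most hold genes picked by their p-values, so that rate is only a rough guide. In 6 of the 10 flagged sets, the library was replicate 1 of sham control. That library had Krt20 at 16.7 CPM (next sham library 1.41), Havcr1 at 82.8 (1.07), Plin2 at 2764 (217), S100a10 at 677 (98.3) and Cyp4a14 at 1837 (762), all above the other sham libraries, and Prss8 at 229 CPM, below them (404). Replicate 2 of sham control had reads for 14326 genes (next 20638). Emp1 had 0.156 CPM in replicate 3 of sham control and no read in the other sham libraries. Replicate 3 of IRI RIPC had Havcr1 at 80.2 CPM, below the other IRI libraries (next 399.9), and Slc37a4 at 146 CPM, above them (40.7). The cause of these values was not tested.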

How the results depend on the processing

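The 280 called genes kept their sign wherever they could be fitted, which their choice in these same libraries largely fixed in advance. The 50 higher and 230 lower calls became 359 and 752 with no filter on low counts, and 168 and 510 with at least 10 reads in every library. DESeq2's Wald test called 770 and 1112, apeglm 830 and 1271 at an s-value under 0.01, and limma-voom with quality weights 204 and 657. Upper-quartile factors gave 152 lower calls. The median log2 change of all genes, 0.26, was 0.40 with DESeq2 size factors, 0.15 with 1 mean per group, 0.05 with at least 10 reads in every library, 0.07 with apeglm, and turned to -0.02 without the 3 libraries that stood apart. Leaving out 1 library gave 17 to 76 higher and 76 to 463 lower calls. Beside replicate 2 of sham RIPC and replicate 3 of IRI RIPC, a count moved by over 1.5 times without sham control 2 (30 and 153), sham control 3 (25 and 148), sham RIPC 1 (20 and 93), sham RIPC 3 (23 and 134) and IRI RIPC 1 (22 and 142). Leaving out the 3 libraries that stood apart, chosen after seeing the data, gave 88 and 408, of which 233 were among the 280. Each arm of preconditioning alone gave 0 and 0. Lower genes were 59.1% of the calls with DESeq2's Wald test, 60.5% with apeglm and 67.7% with no filter. The cause of these differences was not tested.

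Deviations of same-numbered libraries correlated at -0.0973 to -0.0111. The 2 IRI control libraries deviate in mirror image, so part of these values is fixed in advance. Whether replicate numbers pair the libraries cannot be decided from them. With a replicate block, 43 higher and 205 lower calls were made, 211 of them among the 280. Slc5a12 (adjusted p = 0.039 in edgeR) and Havcr1 (0.0306) passed with it.

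Genes whose IRI effect differed with RIPC were 0 in edgeR, 84 with no filter, 0 to 15 without 1 library, the most without replicate 1 of IRI control, and 660 with DESeq2's Wald test. The biological coefficient of variation was 1.62, and differences below 3 reads per library, 0.083 to 0.143 CPM, were not detectable at this depth.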
